A study of Mus musculus with 44 samples.

Results

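Sowaha, Mageb16, Samd11 and Tspan8 are 4 little-described genes, chosen by their large log2 fold changes between mice given 2-butoxyethanol (2BE) and vehicle mice in the spleen at 7 d. On the arrays, probe sets annotated with exactly 1 of these symbols were taken, and all of them are described: 1 probe set for Sowaha, 1 for Mageb16, 2 for Samd11 and 5 for Tspan8, which makes 9 of 45037 probe sets and 4 of 18193 genes. Because the spleen at 7 d chose the genes, the difference between its arms is given for them as a description with no test. P-values given later for this set, on agreement with the red cell gene Epb42 within its arms, are a description too. The liver at both times, the spleen at 4 h and the bone marrow at 7 d were not named in the rule of choice and were tested. Earlier results of these data were known when the genes were chosen. The test of the spleen at 4 h shares its estimate of the spread with the spleen at 7 d.

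The study measured 44 Affymetrix arrays of B6C3F1 mice, a hybrid laboratory strain, killed at 4 h or at 7 d. The 4 h arrays were of liver (3 vehicle, 4 2BE) and spleen (4 in each arm). The 7 d arrays were of liver (4 vehicle, 5 2BE), spleen (5 in each arm) and bone marrow (5 in each arm). The sample titles name the arms vehicle and 2BE, whereas the treatment field reads control and reduced oxygen; the groups follow the titles. Dose, route, age and sex are not given in the sources used here. Animals of both arms were anaesthetised with ketamine and acepromazine before cervical dislocation, the marrow came from a humerus, and marrow RNA was extracted with another kit than liver and spleen RNA. Whether tissues with the same replicate number came from the same mouse is not stated, and p-values rest on the spread between these arrays.

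2BE is a glycol ether, and butoxyacetic acid, which the body makes from it, is known to burst the red cells of rodents. The mouse spleen, with the marrow, makes new red cells when they are lost. Sowaha encodes an ankyrin-repeat protein of the sosondowah family. Mageb16 is an X-linked member of the MAGE family, whose proteins bind RING-type ubiquitin ligases and many of which are best known from germ cells. Samd11 encodes a nuclear protein with a sterile alpha motif (SAM) that has been studied in photoreceptors. Tspan8 encodes a tetraspanin, a protein that crosses the membrane 4 times, known mainly from epithelia and their tumours. Epb42 encodes protein 4.2, which ties band 3 to the membrane skeleton of the red cell, and served as the red cell reference.

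The 250 bases before the annotated start were read for Mageb16, Samd11, Tspan8 and Epb42 (RefSeq, GRCm38.p6); Sowaha had no entry. They are shown because the 4 genes had high signals in the same arrays and GATA1, the main transcription factor of red cell precursors, binds GATA sequences. Capitals mark the letters AGATAA or AGATAG and TGATAA or TGATAG on either strand, and each line runs 5′ to 3′ on the gene's strand.
Mageb16 promoter, chrX:79671436-79671685, minus strand: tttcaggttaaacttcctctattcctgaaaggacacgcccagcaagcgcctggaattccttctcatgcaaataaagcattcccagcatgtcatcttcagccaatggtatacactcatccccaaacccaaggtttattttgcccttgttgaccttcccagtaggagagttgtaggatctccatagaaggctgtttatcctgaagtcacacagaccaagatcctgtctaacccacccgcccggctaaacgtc
Samd11 promoter, chr4:156255343-156255592, minus strand: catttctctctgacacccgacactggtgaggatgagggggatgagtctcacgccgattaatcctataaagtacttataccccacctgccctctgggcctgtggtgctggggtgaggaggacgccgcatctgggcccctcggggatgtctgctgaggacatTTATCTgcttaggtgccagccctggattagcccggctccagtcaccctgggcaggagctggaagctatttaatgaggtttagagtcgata
Tspan8 promoter, chr10:115817034-115817283, plus strand: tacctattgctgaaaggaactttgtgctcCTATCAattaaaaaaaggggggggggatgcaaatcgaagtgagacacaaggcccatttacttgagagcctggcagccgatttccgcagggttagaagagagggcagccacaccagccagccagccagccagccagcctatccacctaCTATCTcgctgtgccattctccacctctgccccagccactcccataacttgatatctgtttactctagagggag
Epb42 promoter, chr2:121036878-121037127, minus strand: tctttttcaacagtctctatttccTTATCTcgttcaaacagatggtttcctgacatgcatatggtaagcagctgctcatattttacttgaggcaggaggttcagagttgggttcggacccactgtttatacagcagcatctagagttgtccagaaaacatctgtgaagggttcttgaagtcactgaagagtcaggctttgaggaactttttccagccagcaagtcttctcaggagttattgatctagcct
Samd11 held 1 such match, at bases 90 to 85 before the start, and Tspan8 held 2, at bases 221 to 216 and 74 to 69. Epb42 held 1, at bases 226 to 221, and Mageb16 held 0 in this window. One or more matches stood in 26.5% of all 32851 promoter windows of this length, so that a match is common. The CACCC forms CCACACCC, CCACGCCC, CCCCACCC and CCCCGCCC, searched on both strands because KLF1 binds such letters, were in 0 of the 4 windows and in 27.4% of all windows. A match is a description of letters and not a binding site.

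In the spleen at 7 d each gene's brightest probe set went from low or middling signals with vehicle to high ones with 2BE. The dim Samd11 probe set stayed dim with 2BE, with 30.6% to 36.4% of probe sets below it. No 2BE array overlapped a vehicle array for any of the 9 probe sets. Of all probe sets, 18.3% had every 2BE array above every vehicle array, a background only, since the genes were chosen by this contrast. All values are RMA intensities on a linear scale, listed from replicate 1 to replicate 5, and changes are differences of log2(value + 1) with limma's standard error (SE). Sowaha read 16.1, 45.9, 44.6, 58.1 and 43.5 in the vehicle spleens and 543, 706, 698, 716 and 431 in the 2BE spleens. The lowest 2BE array thus lay far above the highest vehicle array, and the log2 fold change was 3.94 ± 0.33 SE, or 15.4-fold. Mageb16 read 31.2, 137, 124, 107 and 134 with vehicle and 1284, 1517, 1680.0, 1515 and 1027 with 2BE. Vehicle replicate 1 was again the lowest and 2BE replicate 5 the lowest of its arm, and the log2 fold change was 3.85 ± 0.355 SE (14.5-fold).

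Samd11 was measured by a bright and a dim probe set. The bright one (1425288_at) read 44.9, 115, 128, 108 and 135 with vehicle and 1634, 1425, 1544, 1594 and 974 with 2BE. That is a log2 fold change of 3.81 ± 0.31 SE (14.1-fold), with the same arrays lowest in each arm as for Mageb16. The dim one (1456977_at) read 26.8 to 32.9 with vehicle and 48.4 to 64.2 with 2BE, a log2 fold change of 0.98 ± 0.089 SE. Both probe sets pointed the same way, but they differed in size, and the reason was not tested.

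Tspan8 had the highest intensities of the 4 genes in the 2BE spleens, although intensities of different probe sets are not levels of RNA that can be ranked. Its brightest probe set (1424649_a_at) read 45.4, 221, 175, 219 and 179 with vehicle and 2104, 1993, 2181, 2177 and 1479 with 2BE, a log2 fold change of 3.73 ± 0.36 SE (13.3-fold). The other 4 probe sets gave 2.69 ± 0.20 SE (1455709_at), 2.06 ± 0.21 SE (1420018_s_at), 1.90 ± 0.18 SE (1420017_at) and 1.09 ± 0.14 SE (1420019_at). All 5 were higher in every 2BE array, over a range from about the change of the dim Samd11 probe set to that of the bright one.

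Epb42 itself was at 55.0, 282, 293, 336 and 279 with vehicle and 3309, 3554, 3515, 3731 and 2583 with 2BE on its brighter spleen probe set (1417337_at), a log2 fold change of 3.96 ± 0.38 SE. The comparison called 58.5% of all probe sets changed at an adjusted p under 0.05 (29.7% of all as higher, 28.8% as lower), and 18.3% had every 2BE array above every vehicle array; a log2 fold change of at least 1 was reached by 4.05%. These shares are given as the background only, since the rule for choosing the genes used this contrast.

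**Figure D1:**
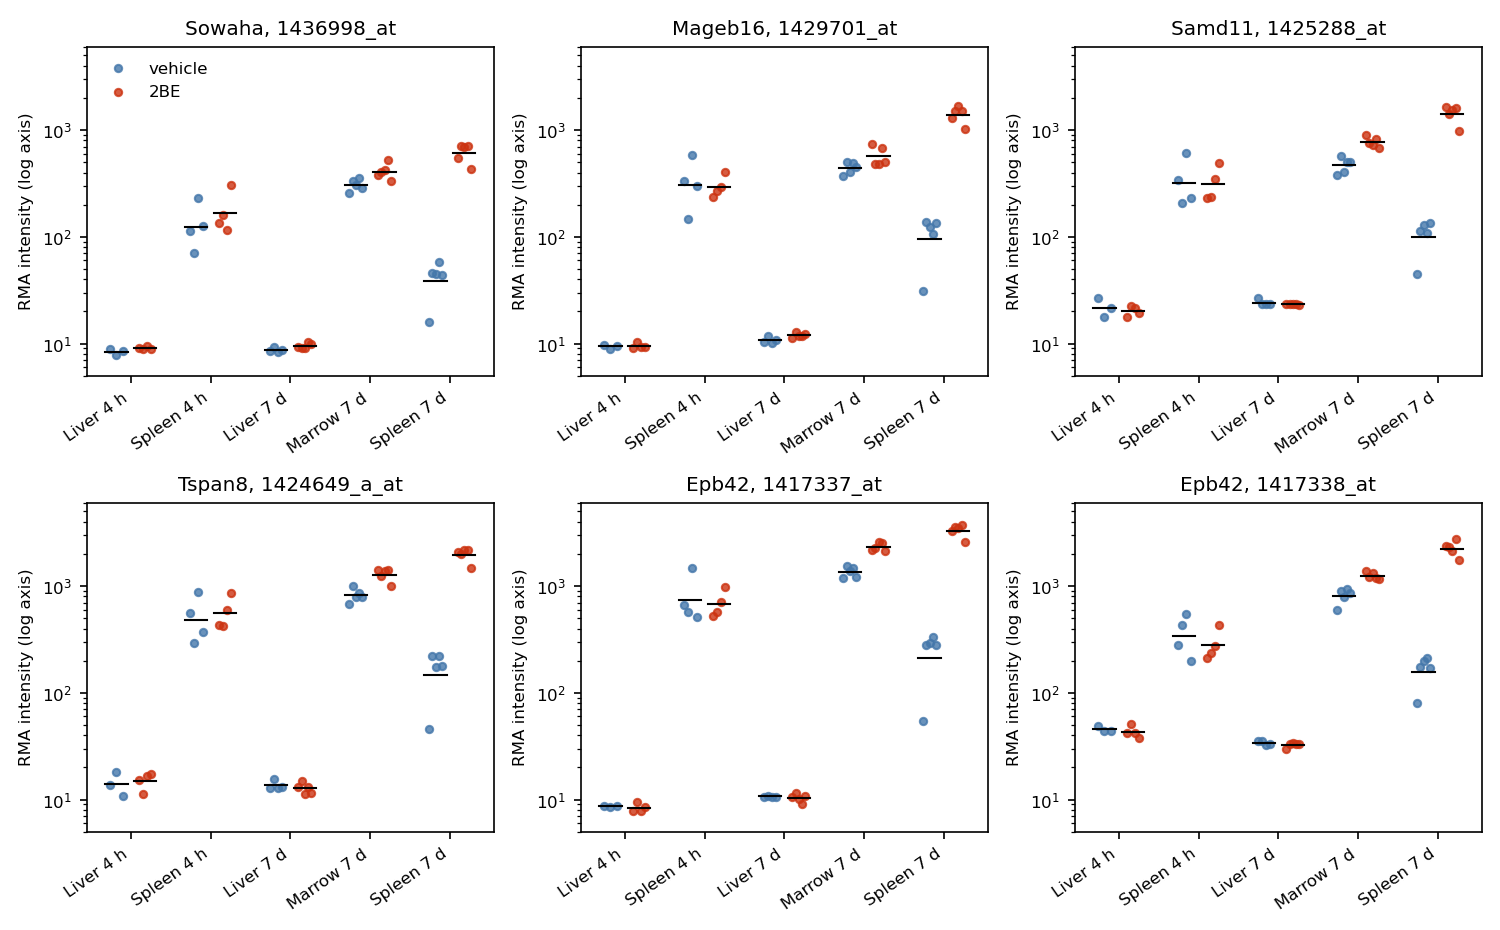
RMA intensity (log axis) of the brightest probe set of each of the 4 genes and of both Epb42 probe sets in each array, with vehicle in blue and 2BE in red and the mean of log2 values as a bar. On the plotted probe sets, signals of the 4 genes were at most 26.5 in the liver, and in the spleen at 7 d all 2BE arrays lay above all vehicle arrays.

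Spleen vehicle replicate 1 at 7 d was the lowest of its arm for 7 of the 9 probe sets, and 2BE replicate 5 was the lowest of its arm for 8 of 9. The mean log2 intensity of the measured erythroid markers (7 of 10, Epb42 among them and Hba-a1 on a dim probe set) was 8.39 in that vehicle array and 9.30 to 9.59 in the other vehicle spleens. It was 11.26 in 2BE replicate 5 and 11.54 to 11.63 in the other 2BE spleens. The same 2 arrays therefore stood lowest for the 4 genes and for the erythroid markers. Their B cell markers (5 of 6 measured) were the highest of their arms, at 12.55 in the vehicle arm, where the lowest array had 12.31, and at 11.42 in the 2BE arm, where the lowest had 10.07. The same held for macrophage markers (11.34 with vehicle, 10.94 with 2BE). It also held for stem and progenitor cell markers (8.14, shared with vehicle replicate 5, and 7.74). No other list of cell type markers was the highest of its arm in both of these arrays. Without vehicle replicate 1 the log2 fold changes were 3.64 for Sowaha, 3.46 for Mageb16, 3.53 for Samd11 and 3.31 for Tspan8 (bright probe sets). Without 2BE replicate 5 they were 4.07, 3.96, 3.95 and 3.83 in the same order. In whole tissue, more cells of a type and more RNA per cell cannot be told apart.

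In the bone marrow at 7 d, 3 of the 4 genes were higher with 2BE by the test, with log2 fold changes of 0.42 to 0.725 on the bright probe sets; the difference in response between marrow and spleen was not tested. Of the 9 probe sets, 6 rose and 0 fell, against 6.69% of all probe sets called higher and 8.46% lower (15.1% in all), and every 2BE array was above every vehicle array for 3 of 9, against 5.69% of all. The median log2 fold change of the 9 was 0.42, and that of all probe sets was 0.001. Adjusted p-values are from limma with Benjamini-Hochberg adjustment over the 45037 probe sets.

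Samd11 rose most. The bright probe set read 383, 566, 401, 507 and 502 in vehicle marrow and 905, 757, 729, 819 and 672 in 2BE marrow. The arms did not overlap, and the log2 fold change was 0.725 ± 0.11 SE (adjusted p = 0.000455). The dim probe set rose from 42.8 to 51.4 up to 52.8 to 69.0, again without overlap, by 0.29 ± 0.080 SE (adjusted p = 0.0244). That smaller call was lost when marrow vehicle replicate 1, vehicle replicate 3 or 2BE replicate 3 was left out, with log2 fold changes of 0.26, 0.25 and 0.23.

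Tspan8 rose on 3 of its 5 probe sets. The brightest read 683, 996, 795, 857 and 786 with vehicle and 1406, 1246, 1389, 1411 and 993 with 2BE, so that only 2BE replicate 5 lay below the highest vehicle array. Its log2 fold change was 0.64 ± 0.11 SE (adjusted p = 0.00111). Probe set 1420017_at read 135, 200.5, 171, 157 and 179 with vehicle and 214, 260.4, 232, 255 and 216 with 2BE. It rose by 0.49 ± 0.095 SE with no overlap (adjusted p = 0.00319). Probe set 1420018_s_at rose by 0.435 ± 0.13 SE (adjusted p = 0.0405), with overlap and from dim values of 24.2 to 31.7, and leaving out any of 7 of the 10 arrays ended the call, with adjusted p-values of 0.0703 to 0.0928. The remaining 2 were at 0.23 ± 0.084 SE (1420019_at, adjusted p = 0.0871) and 0.17 ± 0.10 SE (1455709_at, adjusted p = 0.291).

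Sowaha, in marrow, read 259, 332, 306, 353 and 288 with vehicle and 378, 405, 424, 523 and 336 with 2BE. It rose by 0.42 ± 0.11 SE (adjusted p = 0.0176), and 2BE replicate 5 was the only one within the vehicle range. Mageb16 read 374, 504, 404, 488 and 447 with vehicle and 735, 485, 478, 686 and 498 with 2BE. Only 2BE replicates 1 and 4 stood clearly above the vehicle arrays, and the log2 fold change of 0.36 ± 0.13 SE missed the threshold (adjusted p = 0.0693). It passed after a further quantile normalization (0.38, adjusted p = 0.0472) and with array weights (0.38, adjusted p = 0.0375). Epb42 rose by 0.78 ± 0.083 SE (1417337_at, adjusted p = 3.92e-05) and by 0.63 ± 0.10 SE (1417338_at, adjusted p = 0.000945). The mean log2 intensity of the erythroid markers was 10.60 to 10.93 in vehicle marrow and 11.04 to 11.23 in 2BE marrow, so these markers moved with the 4 genes, and their part in the result was not tested.

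**Figure D2:**
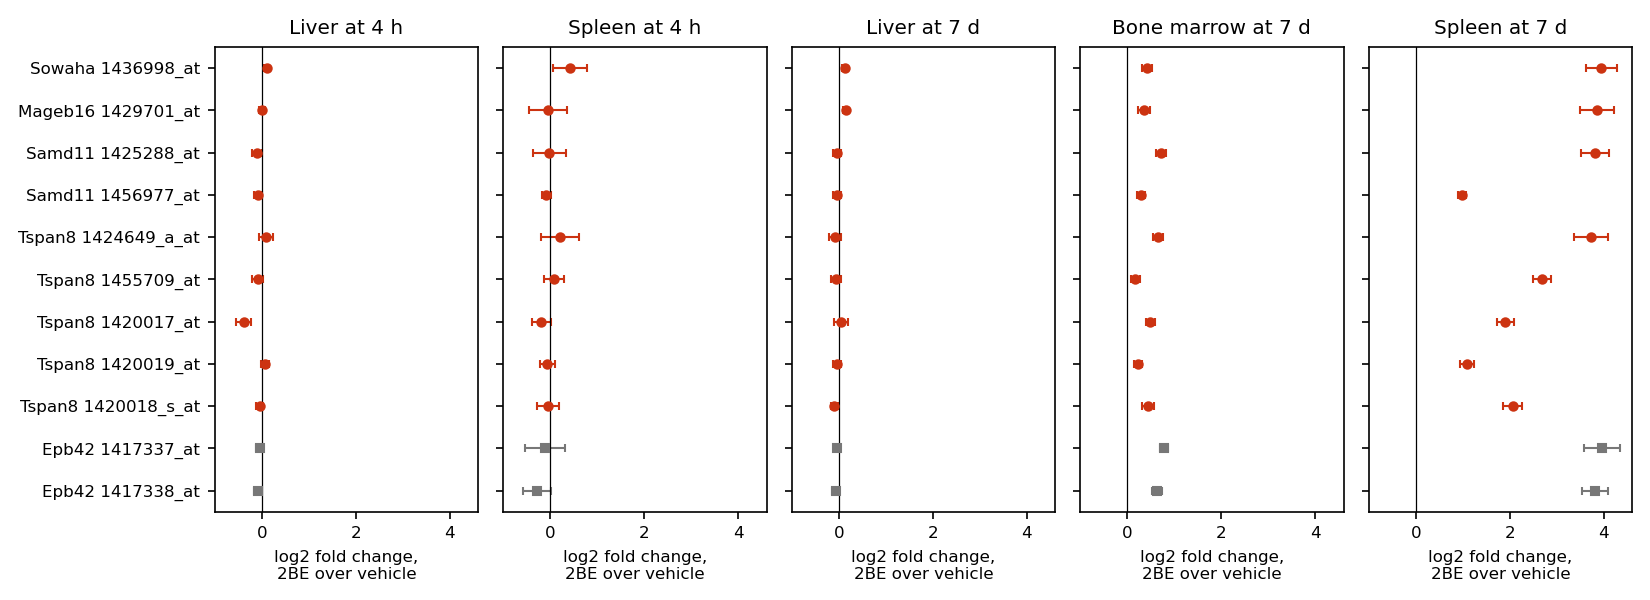
Log2 fold change of 2BE over vehicle (points) with limma's standard error (bars) for each of the 9 probe sets and for both Epb42 probe sets, in each tissue and time. Over the 9 probe sets of the 4 genes, changes were between 0.98 and 3.94 in the spleen at 7 d and between 0.17 and 0.725 in the marrow, and they scattered around 0 elsewhere.

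At 4 h the spleens already carried the signals of the 4 genes in both arms, and none of the 9 probe sets was called. In limma, 0 of 9 passed and 0 of 9 had an unadjusted p under 0.05, against 4.24% of all probe sets called; log2 fold changes ran from -0.20 to 0.42. Sowaha read 114, 70.3, 231 and 126 with vehicle and 134, 159, 115 and 306 with 2BE, a log2 fold change of 0.42 ± 0.37 SE (adjusted p = 0.600). Mageb16 read 333, 148, 582 and 302 with vehicle and 237, 266, 292 and 409 with 2BE (-0.05 ± 0.40 SE). For both genes 1 array of each arm stood high, vehicle replicate 3 and 2BE replicate 4, and the arms overlapped widely.

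Samd11 (1425288_at) in the spleen at 4 h read 342, 206, 616 and 230.0 with vehicle and 231, 238, 349 and 489.9 with 2BE, a log2 fold change of -0.02 ± 0.345 SE. Tspan8 (1424649_a_at) read 561, 293, 875 and 374 with vehicle and 430.3, 424, 602 and 860.1 with 2BE, a log2 fold change of 0.20 ± 0.40 SE. Vehicle replicate 3 was the highest of its arm for all 9 probe sets and 2BE replicate 4 for 8 of 9. The erythroid markers averaged 10.55 and 10.22 in these 2 arrays and 9.59 to 10.13 in the other 6. The standard errors of the bright probe sets were 0.345 to 0.40 here and 0.11 to 0.13 in the marrow, so that on these a change of the size called in the marrow could be missed at 4 h. Samd11 1456977_at, Tspan8 1420017_at and Tspan8 1420018_s_at, also called in the marrow, had standard errors of 0.10, 0.20 and 0.23 here. Their changes were -0.08, -0.20 and -0.05.

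In the liver no probe set of the 4 genes was called. Sowaha lay between 7.83 and 10.3 over all 16 liver arrays, Mageb16 between 8.97 and 12.9, Samd11 (1425288_at) between 17.6 and 26.5 and Tspan8 (1424649_a_at) between 10.9 and 18.2. Within the arrays, at most 3.8% of probe sets had a lower signal than Sowaha and at most 9.7% a lower one than Mageb16. For Samd11 (1425288_at) the share was 25.4% to 37.8%, for Tspan8 (1424649_a_at) at most 26.3%, and for Tspan8 1420017_at at most 52.0%, so that not all probe sets were dim there. In limma, 0 of 9 passed at 4 h, against 3.11% of all probe sets, and 0 of 9 at 7 d, against 0.473%; 1 of 9 and 2 of 9 had an unadjusted p under 0.05. With only the 2 groups of the liver at 4 h in the fit, 333 probe sets were called in place of 1400. Adding the replicate number as a block to that fit gave 67, and still 0 of the 9. The 3 with a low unadjusted p were a Tspan8 probe set at 4 h (1420017_at, -0.39 ± 0.16 SE, adjusted p = 0.243), and Mageb16 (0.14 ± 0.057 SE, adjusted p = 0.372) and Sowaha (0.13 ± 0.054 SE, adjusted p = 0.416) at 7 d.

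The median intensity of an array depended on tissue and time (41.2 to 42.5 for 4 h liver, 109.4 to 111.7 for 7 d spleen), so that the sets may have been normalized separately and intensities were not compared between them. The share of probe sets with a lower signal in the same array gives an order instead. For Sowaha this share was 6.2% to 34.8% in vehicle spleens at 7 d, 44.7% to 69.9% in vehicle spleens at 4 h and 72.1% to 77.0% in vehicle marrow. These did not overlap. For Mageb16 the shares were 21.2% to 54.7%, 60.8% to 85.5% and 78.3% to 83.4%, so that spleen at 4 h and marrow overlapped, as they did for Samd11 and Tspan8. In 2BE spleens at 7 d the shares were 78.1% to 87.8% for Sowaha, 90.7% to 94.9% for Mageb16, 90.1% to 94.7% for Samd11 and 93.8% to 96.3% for Tspan8. Vehicle spleens of the 2 times thus differed in these shares on the bright probe sets, and time and set cannot be told apart. At 7 d and 4 h the shares overlapped for Samd11 1456977_at (16.9% to 22.1% and 12.9% to 21.7%). They also overlapped for Tspan8 1420018_s_at and 1420017_at, but not for 1455709_at and 1420019_at. How many of all probe sets differed in this way was not counted.

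How far the signal of the 4 genes followed that of Epb42 within an arm differed between tissues, between the Epb42 probe sets and with 2 arrays left out. Each value was taken as its deviation from its arm's mean, so that the difference between the arms was removed, and p-values came from exact permutation of the pairings within each arm, two-sided, adjusted over 27 relations. In the spleen at 7 d (10 arrays) Pearson's r with Epb42 (1417338_at) was 0.948 for Sowaha (exact p = 0.00646, adjusted 0.12) and 0.943 for Tspan8 (exact p = 0.0133, adjusted 0.12). It was 0.913 for Samd11 (exact p = 0.0273, adjusted 0.163) and 0.886 for Mageb16 (exact p = 0.0542, adjusted 0.163). Spearman's rho was 0.794 (exact p = 0.00917), 0.770 (exact p = 0.0633), 0.576 (exact p = 0.112) and 0.564 (exact p = 0.167) in the same order. Only 0.20% to 0.83% of all probe sets had an r as high. Without the 2 arrays farthest from the Epb42 median, vehicle replicate 1 and 2BE replicate 5, r was 0.457 for Sowaha, 0.185 for Tspan8, -0.203 for Samd11 and -0.625 for Mageb16. The relation to this probe set therefore rested on those 2 arrays. The genes were chosen on the spleen at 7 d, so its p-values here are a description.

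In the marrow (10 arrays) r was 0.763 for Samd11 (exact p = 0.0119, adjusted 0.12), 0.686 for Tspan8 (exact p = 0.0331, adjusted 0.163), 0.552 for Mageb16 (exact p = 0.0437, adjusted 0.163) and 0.459 for Sowaha (exact p = 0.156, adjusted 0.281). The Spearman coefficients were 0.806 (exact p = 0.00771), 0.527 (exact p = 0.122), 0.527 (exact p = 0.109) and 0.394 (exact p = 0.268). Without vehicle replicates 1 and 4 Pearson's r was 0.725, 0.670, 0.475 and -0.003, so that Samd11 and Tspan8 kept a similar r on 8 arrays. In the spleen at 4 h (8 arrays) r was 0.685 for Samd11, 0.594 for Tspan8, 0.475 for Sowaha and 0.339 for Mageb16, with rho of 0.619, 0.452, 0.262 and 0.476. Exact p-values of r there were 0.111 to 0.557 and those of rho 0.188 to 0.611, and r was -0.885 to -0.023 without vehicle replicate 3 and 2BE replicate 4. Over all 27 relations 0 had an adjusted exact p under 0.05, and 8 had an unadjusted one. The dimmer probe sets agreed less, down to an r of 0.116 in the spleen at 7 d.

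The other Epb42 probe set (1417337_at), brought in after the data were seen because it was the brighter one in spleen and marrow, gave a higher r for the 4 genes in the spleen at both times, and in the marrow a higher one for Sowaha and Tspan8 and a lower one for Mageb16 and Samd11. In the spleen at 7 d r was 0.926 to 0.985 over the 4 genes, and without the 2 arrays farthest from the median of this probe set, vehicle replicates 1 and 4, it was 0.795 to 0.946. These are not the arrays left out above, since the low 2BE replicate 5 stayed in, and 0 of the relations had an adjusted exact p under 0.05 on the 8 arrays. Sowaha (0.958, exact p = 0.000556, adjusted 0.015) and Tspan8 (0.985, exact p = 0.0120, adjusted 0.0405) passed. With 1417338_at 0 of the 4 genes had passed here, and the genes were chosen on this set, so this is a description. At 4 h in the spleen Samd11 (0.961, exact p = 0.00521, adjusted 0.0361) and Tspan8 (0.920, exact p = 0.00694, adjusted 0.0375) passed; without the 2 farthest arrays r was -0.258 to 0.880. In the marrow Sowaha (0.814, exact p = 0.00535, adjusted 0.0361) and Tspan8 (0.772, exact p = 0.0100, adjusted 0.0402) passed, whereas Mageb16 and Samd11 were at 0.254 and 0.402. Without the 2 farthest marrow arrays, vehicle replicates 1 and 2, r was 0.796 for Sowaha, 0.609 for Tspan8, -0.032 for Mageb16 and -0.064 for Samd11. On those 8 arrays 0 of the relations had an adjusted exact p under 0.05. The 2 Epb42 probe sets had an r with each other of 0.960 in the spleen at 7 d, 0.810 in the spleen at 4 h and 0.543 in the marrow (exact p = 0.148), so the choice of probe set mattered most there.

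**Figure D3:**
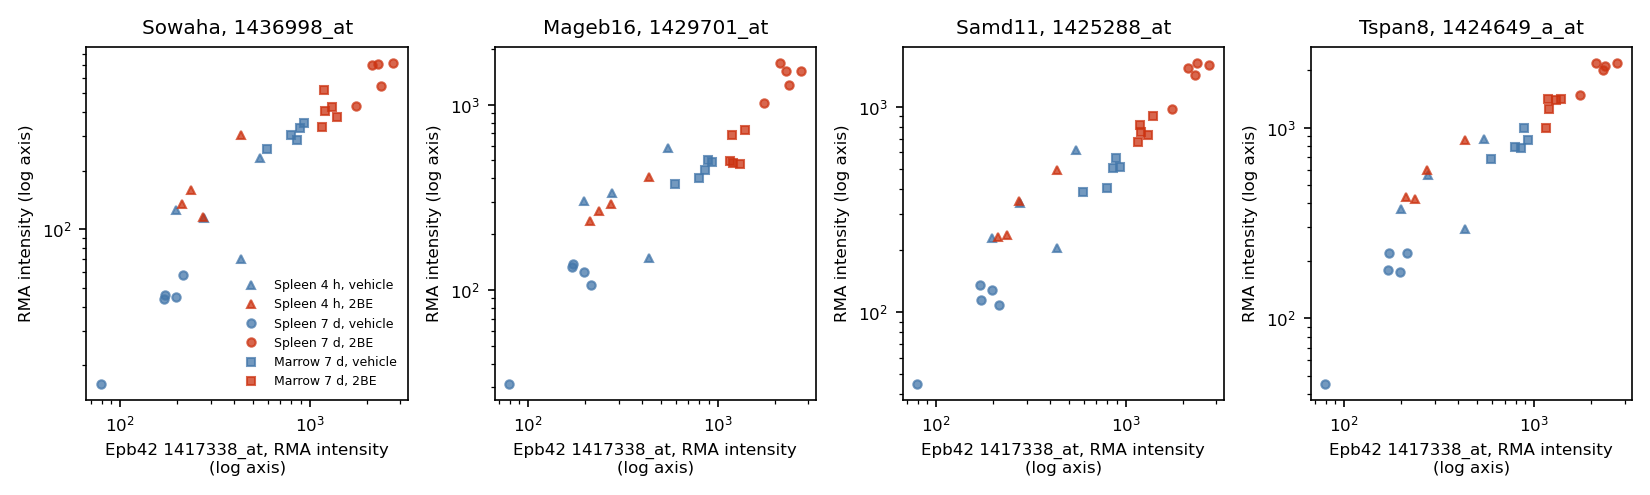
Intensity of the brightest probe set of each gene against that of Epb42 (1417338_at), both on log axes, for each spleen and marrow array, with triangles for the spleen at 4 h, circles for the spleen at 7 d and squares for the marrow (blue vehicle, red 2BE). Vehicle replicate 1 of the spleen at 7 d is the single circle at the lower left, with Epb42 at 79.6 and Sowaha at 16.1.

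Over all 44 arrays, with each tissue and time set centred on its own mean, the 5 genes most like each of the 4 were found by Pearson's r. This likeness includes the difference between the arms, so it is a description. For Mageb16 the top 5 were Fhdc1 (r = 0.985), Ypel4 (0.984), Nfe2 (0.983), Kel (0.983) and Ermap (0.982); Nfe2 encodes an erythroid and megakaryocyte transcription factor, and Kel and Ermap carry blood group antigens. For Samd11 they were Dmtn (0.989), Sptb (0.988), Kel (0.988), Tmod1 (0.988) and Slc6a9 (0.987). Dmtn, Sptb and Tmod1 encode dematin, beta-spectrin and tropomodulin of the red cell skeleton, and Slc6a9 a glycine transporter.

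For Tspan8 the top 5 were Kel (0.987), Fhdc1 (0.987), Rhd (0.986), Fn3k (0.984) and Ermap (0.983), where Rhd encodes the mouse Rh antigen and Fn3k a kinase that deglycates proteins. For Sowaha they were Fhdc1 (0.982), Ypel4 (0.979), Mageb16 (0.977), Cdkn3 (0.977) and Nusap1 (0.977), and the last 2 act in cell division. The 4 genes correlated with each other at 0.968 to 0.980. Epb42 (1417338_at) correlated with them at 0.947 to 0.974, at ranks 76 to 193 among genes, and 1417337_at at 0.967 to 0.981. Kel and Fn3k, as examples, rose by 3.63 ± 0.315 SE and 3.47 ± 0.33 SE in the spleen at 7 d and by 0.51 ± 0.096 SE and 0.62 ± 0.084 SE in the marrow.

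Members of the 4 genes' families were called in both directions, and their counts stand against 29.7% of all probe sets called higher and 28.8% lower in the spleen at 7 d, and 6.69% and 8.46% in the marrow. Of 30 other tetraspanins, 28 were measured; in the spleen at 7 d 4 rose and 16 fell (median -0.29, against 0.05 over all probe sets), and in the marrow 3 rose and 5 fell. Tspan33, a tetraspanin with a known part in red cell formation, rose by 2.98 ± 0.23 SE in the spleen and 0.59 ± 0.074 SE in the marrow. In the spleen the leukocyte tetraspanin Cd37 fell by 1.498 ± 0.18 SE, Cd53 fell by 1.30 ± 0.15 SE and Cd9 fell by 1.37 ± 0.11 SE. At 4 h in the spleen, Tspan12 rose by 0.565 ± 0.12 SE. None of the 28 was called in the liver at either time.

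Of 20 SAM domain genes, 16 were measured; 5 rose and 9 fell in the spleen at 7 d (median -0.35), the former near the share over all probe sets, and 1 rose and 3 fell in the marrow. Samd14 rose in both, by 2.11 ± 0.22 SE in the spleen and 0.525 ± 0.067 SE in the marrow. In the spleen the interferon-induced Samd9l fell by 1.32 ± 0.17 SE and Samhd1, a dNTPase that restricts viruses, fell by 1.11 ± 0.11 SE; in the marrow the Polycomb gene Phc1 fell by 0.47 ± 0.069 SE. At 4 h in the spleen, Samd4 and Samd8 rose by 0.74 ± 0.105 SE and 0.53 ± 0.11 SE. Of 21 MAGE genes, 10 were measured; 3 rose, also near that share, and 5 fell in the spleen at 7 d (median -0.08), led by Mageh1, which fell by 1.10 ± 0.11 SE, and 1 rose and 2 fell in the marrow. Of 3 sosondowah relatives 2 were measured, and in the spleen at 7 d Sowahc fell by 0.795 ± 0.11 SE.

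Red cell genes rose in the spleen and marrow at 7 d. Of all probe sets, 29.7% were called higher and 28.8% lower in the spleen at 7 d. In the marrow these shares were 6.69% and 8.46%. Of 18 genes of the red cell membrane and skeleton, 15 were measured; 15 rose in the spleen at 7 d (median 3.15) and 14 in the marrow (median 0.50). None of the 15 was called in the spleen at 4 h. Epb42 (3.81), Kel and Icam4 (3.57 ± 0.32 SE) were the highest of the list in the spleen. Of 20 late erythroblast and reticulocyte genes, 14 were measured; 14 rose in the spleen at 7 d (median 1.61) and 9 in the marrow (median 0.31). Trim10, Tmcc2 and Tspo2 rose by 3.26 ± 0.28 SE, 3.23 ± 0.345 SE and 3.14 ± 0.25 SE in the spleen. In the spleen at 4 h Bpgm, the enzyme that makes 2,3-bisphosphoglycerate, fell by 0.83 ± 0.17 SE. Of 17 erythroid transcription factor and progenitor genes, 12 rose and 1 fell in the spleen at 7 d (median 2.46), and 11 rose and 2 fell in the marrow (median 0.28). The red cell factor Klf1, Nfe2 and Hemgn rose by 3.20 ± 0.30 SE, 3.03 ± 0.275 SE and 2.89 ± 0.33 SE in the spleen, and Myb, a factor of early progenitors, fell by 0.71 ± 0.095 SE in the marrow.

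**Figure D4:**
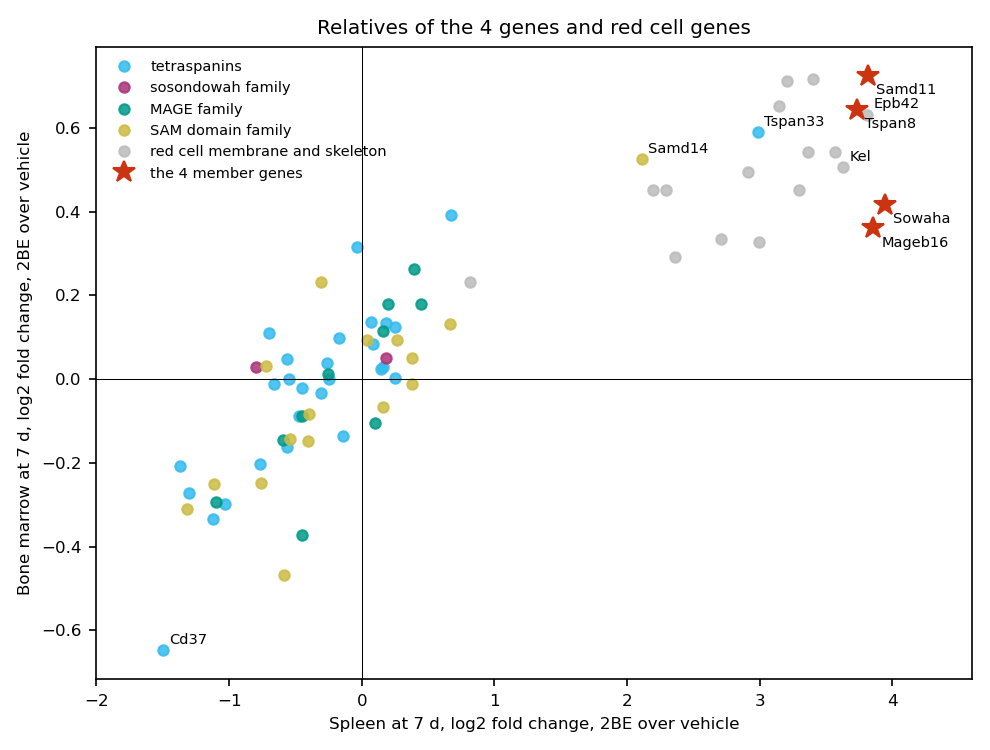
Log2 fold change in the bone marrow against that in the spleen at 7 d for the 4 genes (stars), their family relatives (coloured points) and red cell membrane genes (grey points), 1 probe set per gene. Tspan33 and Samd14 are the only family relatives above 2 in the spleen.

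Markers of the cells in which Tspan8, Mageb16 and Samd11 are better known were measured as well, and their counts in the spleen at 7 d stand against 58.5% of all probe sets called. Epithelial markers (7 measured) averaged 5.79 to 6.56 log2 units in vehicle spleens and 5.81 to 6.10 in 2BE spleens at 7 d; Cldn4 rose by 0.20 ± 0.071 SE, Cdh1 fell by 0.75 ± 0.096 SE, and Epcam was at -0.003 ± 0.096 SE. Germ cell markers (6) averaged 5.26 to 5.43 and 5.51 to 5.72; 3 rose and 1 fell, near that share, led by Ddx4, which rose by 1.15 ± 0.17 SE from a low mean of 3.83. Photoreceptor markers (5 of 6) averaged 5.71 to 5.87 and 5.82 to 6.07; 3 rose and 1 fell, with Crx changing most, by 0.30 ± 0.090 SE. In the marrow these 3 lists had 0, 1 and 0 calls, against 15.1% of all probe sets called there. B cell markers fell in 5 of 5 in both tissues at 7 d (medians -1.65 in the spleen and -1.67 in the marrow), and 4 of 5 megakaryocyte and platelet markers fell in the spleen. Of all probe sets, 28.8% were called lower in the spleen at 7 d and 8.46% in the marrow. Which cells held the RNA of the 4 genes was not tested.

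Of the 15 nearest protein-coding neighbours of the 4 genes in the genome (up to 2 on each side), 13 were measured. Of these, 5 rose and 2 fell in the spleen at 7 d, which is near the 58.5% of all probe sets called. In the marrow 1 rose and 1 fell, which is near the 15.1% of all probe sets called there. Septin8, a neighbour of Sowaha that encodes a septin, rose by 1.96 ± 0.22 SE in the spleen and 0.58 ± 0.059 SE in the marrow, and Shroom1, on the other side, rose by 0.43 ± 0.084 SE in the spleen. Tmem47, near Mageb16, rose by 0.79 ± 0.16 SE in 4 h spleens, and in 7 d spleens it fell by 1.38 ± 0.14 SE. Noc2l, next to Samd11, fell by 0.31 ± 0.077 SE in the spleen, and Lgr5, near Tspan8, fell by 1.03 ± 0.17 SE in the marrow. Among the measured neighbours, Septin8 was thus the only one called higher in both tissues. How many of all probe sets were called higher in both was not counted.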

How the data were processed

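Expression in liver, spleen and bone marrow was measured on 44 Affymetrix arrays. The authors deposited 1 table of intensity per probe set on a linear scale (6.16 to 47797.8, 0 missing), made with RMA per the submitters' processing notes (version not given in the sources used here). RMA corrects background, quantile-normalizes arrays and summarises probes. Its quantile step ties each array to the others, and a pseudocount of 1 understates changes of dim probe sets. Precision is limited by how many arrays each arm had.

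The 64 control probe sets among 45101 were dropped; 34945 of the rest had 1 gene symbol, 932 several and 9160 none. Values were fitted as log2(intensity + 1) by limma 3.58.1 (R 4.3.3; a mean for each group, all groups of a tissue together, eBayes, two-sided), with Benjamini-Hochberg adjustment over 45037 probe sets and calls at an adjusted p under 0.05. SE is the moderated standard error. Likeness and lists used 1 probe set per gene, that with the highest mean over all arrays. Epb42 was compared with each gene array by array as deviations from group means. Promoter windows came from RefSeq. The fitting and permutation code was tested on simulated data.

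The 4 genes and the lists were chosen with earlier results of these data known. Genes named otherwise were Epb42, the 5 most alike per gene (no clone-like symbols), up to 4 changed genes per family list and set of neighbours, and up to 3 per cell type list; Epcam was added after its values were seen. Alternatives were the pseudocount, a filter on low values, 2 groups alone in the fit, 1 probe set per gene, a further quantile normalization, trended and robust eBayes, array weights, the replicate number as a block, leaving out each array, and pooling both spleen times. Deviations of same-numbered arrays of the arms had correlations of 0.1001, 0.234 and 0.115 in the liver at 4 h, over all probe sets. In the spleen at 4 h these correlations were 0.147, 0.452, 0.325 and -0.342. The main fits paired no arrays in any tissue, and the replicate block was run only as an alternative. Sequences of the probes were not used here, so cross-hybridization, for example between Mageb16 and related sequences, was not tested.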

Additional observations from a re-analysis of the deposited data

Results flagged for a closer look

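Of 81 groups of 4 or 5 arrays examined over the 9 probe sets, 12 held 1 array far from the others. Independent groups would give about 1 in 20, or 4, by chance. These groups share arrays and genes, so they are not independent and nothing is concluded from the difference in counts. Spleen vehicle replicate 1 at 7 d was far below the other vehicle spleens for Sowaha (16.1 against 43.5 to 58.1), Mageb16 (31.2 against 107 to 137), Samd11 1425288_at (44.9 against 108 to 135), Tspan8 1424649_a_at (45.4 against 175 to 221) and Tspan8 1420019_at (48.4 against 68.8 to 79.3). Spleen 2BE replicate 5 at 7 d was below the other 2BE spleens for Samd11 1425288_at (973.6 against 1425 to 1634) and Tspan8 1424649_a_at (1479 against 1993 to 2181). The same arrays had the lowest erythroid markers of their arms, and the part of these markers was not tested.

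At 4 h, spleen vehicle replicate 3 was high for Tspan8 1420017_at (173.4 against 110.5 to 113) and spleen 2BE replicate 4 for Tspan8 1455709_at (276.6 against 147 to 157). In the liver, Mageb16 stood high in 2BE replicate 2 at 4 h (10.2 against 9.2 to 9.3), Samd11 1425288_at in vehicle replicate 1 at 7 d (26.5 against 23.2 to 23.7) and Tspan8 1424649_a_at in vehicle replicate 2 at 7 d (15.6 against 12.8 to 13.1).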

How the results depend on the processing

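None of the called values of the 9 probe sets changed sign under the alternatives run, and the calls of the bright Samd11 and Tspan8 probe sets and of Sowaha in the marrow held under each of them. In the marrow, Mageb16 passed after a further quantile normalization (0.38, adjusted p = 0.0472) and with array weights (0.38, adjusted p = 0.0375), and was 0.27 to 0.42 with single arrays left out, where it passed under none. With the replicate number as a block, the dim Samd11 probe set lost its call in the marrow (0.29, adjusted p = 0.0530), and the block changed no other call of the 4 genes. A pseudocount of 16 ended the marrow call of Tspan8 1420018_s_at (0.30, adjusted p = 0.0587), and a further quantile normalization made one for Tspan8 1420019_at (0.265, adjusted p = 0.0398). Calls over all probe sets moved by more than 1.5 times as follows. With only the 2 groups in the fit they were 333 (liver at 4 h, from 1400) and 908 (spleen at 4 h, from 1911). With 1 probe set per gene, which tests fewer features, they were 821, 938, 136 (liver at 7 d, from 213), 3651 (marrow, from 6821) and 11712 (spleen at 7 d, from 26343). The replicate block, run on the 2 groups alone, gave 67, 984 and 134 in the first 3 comparisons. Without the block, that fit gave the 333 and 908 above for the liver and spleen at 4 h. Array weights gave 503 in the liver at 7 d. Single arrays left out gave 768 to 1852 (liver at 4 h), 1235 to 2010 (spleen at 4 h) and 56 to 457 (liver at 7 d). The cause was not tested.

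Agreement with Epb42 passed for 3 genes when both spleen times were pooled as deviations from group means (18 arrays, permutation). These were Sowaha 0.693 (adjusted p = 0.0347), Samd11 0.789 (adjusted p = 0.0273) and Tspan8 0.769 (adjusted p = 0.0347). The pooled arrays include the spleens at 7 d, on which the genes were chosen. With the other Epb42 probe set, added after seeing the data, r was 0.961 (Samd11) and 0.920 (Tspan8) in the spleen at 4 h, 0.958 (Sowaha) and 0.985 (Tspan8) in the spleen at 7 d, and 0.814 (Sowaha) and 0.772 (Tspan8) in the marrow, all past the threshold by exact permutation. Without the 2 farthest arrays of each set none of them passed after adjustment, and the genes were chosen on the spleen at 7 d. With single arrays of the spleen at 4 h left out, r was -0.127 to 0.987 (Mageb16), 0.467 to 0.980 (Samd11) and 0.332 to 0.970 (Tspan8), highest without vehicle replicate 2. A filter on low values left no fit for the dimmest liver probe sets. Dim signals of Sowaha and Mageb16 limit what the liver can show for them.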
